A study of Mus musculus with 8 samples.

Results

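The 35 genes described here encode enzymes, carriers and regulators of fatty acid beta-oxidation in mitochondria and peroxisomes. They were chosen by name from knowledge of the pathway, with earlier results of these data already known. All 35 were found among the 55421 genes of the deposited table through their Ensembl identifiers. RNA had been sequenced from 8 libraries of primary mouse bone marrow derived macrophages (BMDMs), which are macrophages grown from marrow cells, at day 7 of differentiation. Of these, 4 came from wild-type (WT) and 4 from Baf60a knockout (Baf60a KO) cultures, and the series title gives C57 mice. The gene behind Baf60a is Smarcd1, which encodes a SWI/SNF chromatin remodelling subunit. How the gene was deleted, any Cre promoter, and the age and sex of the mice are details not given in the sources used here. Nothing in the labels tells if replicates were separate animals or cultures, and each p-value therefore reflects only spread among libraries, which may be technical.

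Long-chain fatty acids are activated to acyl-CoA, passed into mitochondria on carnitine and shortened in repeated rounds of dehydrogenation, hydration, a further dehydrogenation and thiolytic cleavage. Very long and branched chains start in peroxisomes, where the first oxidation yields hydrogen peroxide in place of electrons for the respiratory chain. In liver, Baf60a has been described as a partner of the coactivator PGC-1alpha at fatty acid oxidation genes. In macrophages the pathway is best known for its link to alternative activation. The comparison asks whether transcripts of the pathway differ in macrophages labelled as lacking Baf60a.

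Of the 35 genes, 1 rose in Baf60a KO, the peroxisomal thiolase and sterol carrier gene Scp2, and 0 fell. The other 34 did not pass the test, which was limma on log2(TPM + 1) with Benjamini-Hochberg adjustment over all 13933 genes tested and a threshold of 0.05 on the adjusted p. TPM is a level scaled for transcript length and to the same total in each library. The 1 called member is 2.86% of the list, whereas 5.61% of all genes tested were called. Of all genes tested, 4.4% rose and 1.21% fell. An unadjusted p under 0.05 was found for 8 members (22.9%) against 22.3% of all genes. The 2 groups did not overlap for 8 members (22.9%), 7 with higher KO values and 1 with lower, against 15.8% of all genes in either direction and 11.9% with higher KO values. The median log2 difference, KO minus WT, was 0.03 over the members and 0.03 over all genes, and 21 members lay above 0 and 14 below.

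The sizes of difference compatible with these libraries can be read from the 95% confidence intervals of limma, which are not adjusted for the number of genes. All 35 intervals lay within a 1.4-fold change in either direction on the log2(TPM + 1) scale, 33 lay within a 1.3-fold change, 26 within a 1.2-fold change and 5 within a 1.1-fold change. Their half-widths ran from 0.082 (Hsd17b10) to 0.21 (Ehhadh), with a median of 0.13. The bound farthest from 0 was -0.42, for Pdk4.

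**Figure D1:**
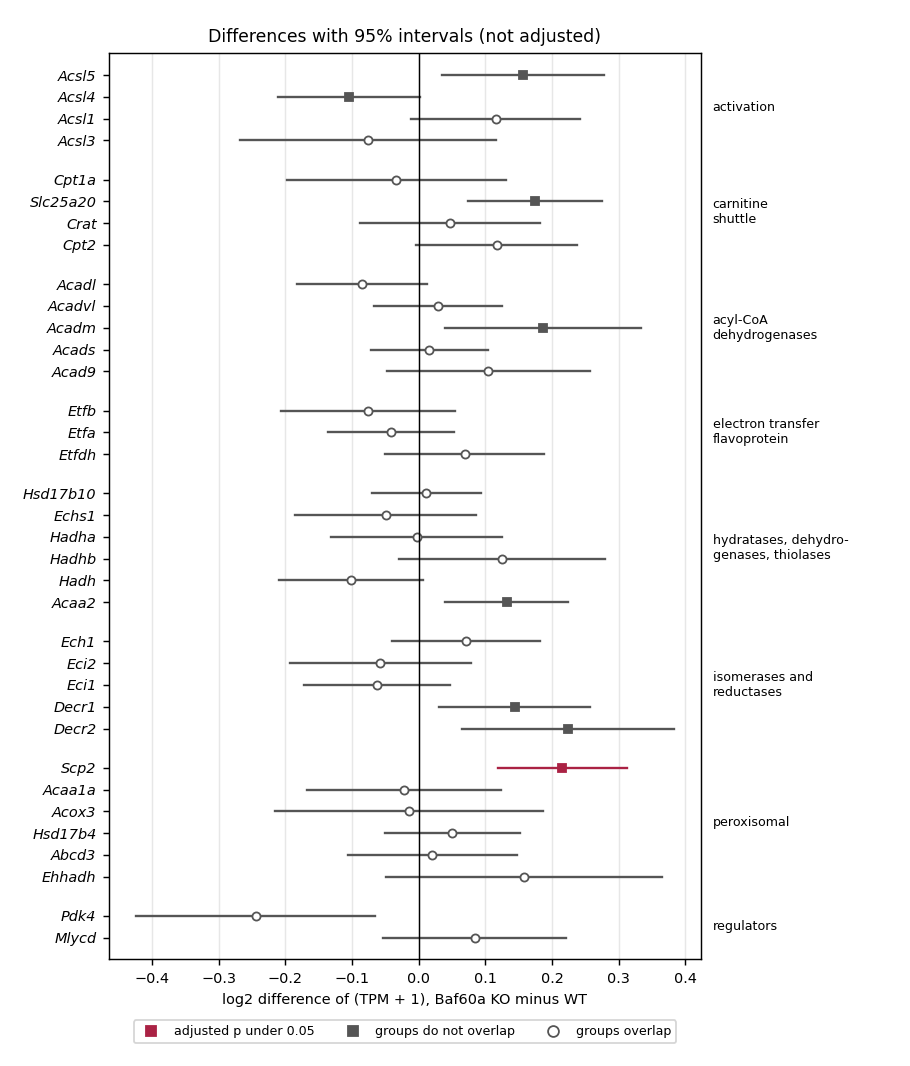
Log2 difference of TPM + 1, Baf60a KO minus WT, for the 35 genes grouped by role, with 95% confidence intervals from limma (4 libraries a group). Squares mark genes whose groups do not overlap, and red marks Scp2 (0.22), the 1 gene past the threshold; Pdk4 (-0.24) lies farthest below 0.

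Levels spanned a wide range within the pathway. In WT, Etfb was highest at 226 ± 17.9 TPM (SD, n = 4, as throughout), followed by Hsd17b10 at 194 ± 6.64, Scp2 at 177 ± 8.42 and Ech1 at 124 ± 8.04. The lowest were Ehhadh at 0.908 ± 0.0690 TPM, Acsl3 at 6.65 ± 0.577 and Mlycd at 8.46 ± 0.431. The 35 genes together held between 1882 and 2031 TPM in WT libraries and between 1980 and 2009 in KO libraries. All 35 passed the filter on low values (TPM over 1 in at least 4 libraries). Ehhadh passed it through 1 WT and 3 KO libraries, so its entry into the test leaned on the group with higher values.

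**Figure D2:**
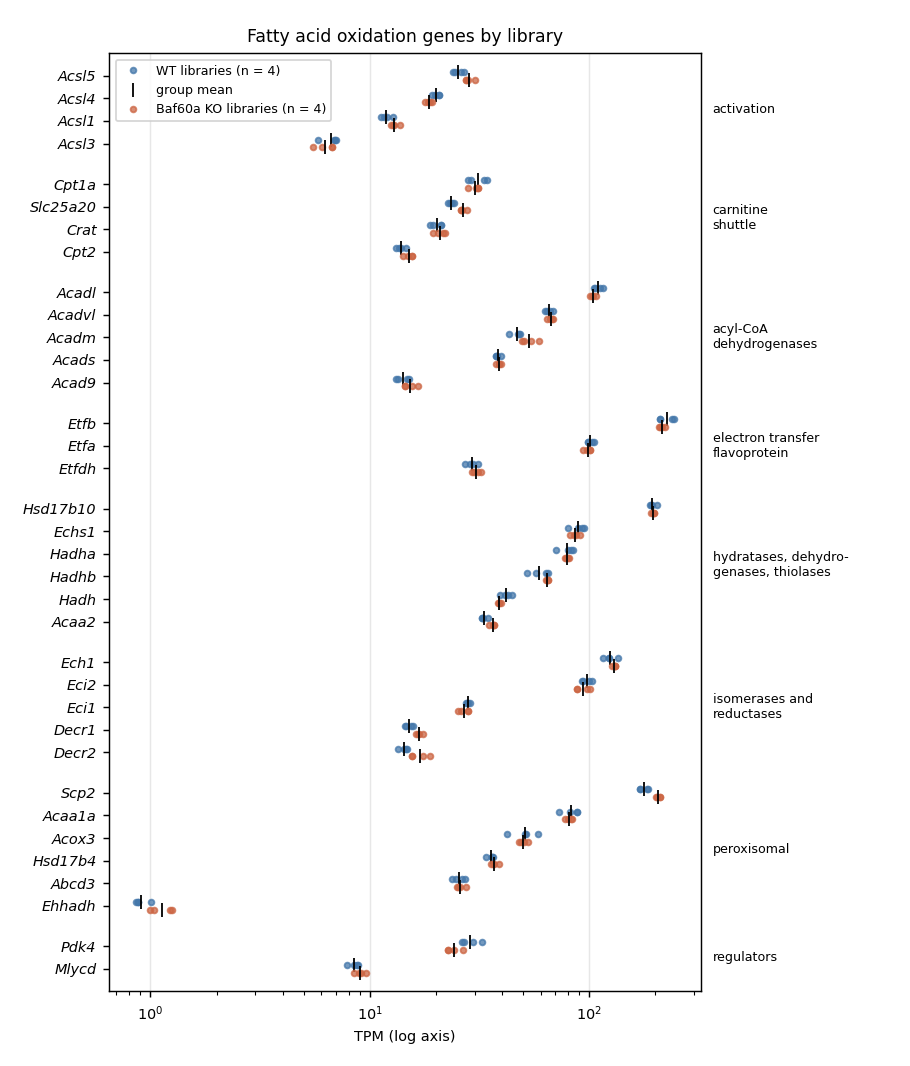
TPM (log axis) of the 35 genes in each of the 4 WT (blue) and 4 Baf60a KO (orange) libraries, with black ticks at group means, grouped by role and ordered by WT level. Scp2 is the peroxisomal gene with the highest level, and its 4 KO points (200.6 to 209.8) lie above its WT points (169.7 to 185.7).

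Scp2 (chromosome 4, 108043839 to 108144998, minus strand, build mm10) encodes a long protein that joins a peroxisomal thiolase for branched-chain fatty acids to a sterol carrier domain, and a short protein with the carrier domain alone. WT libraries, in replicate order, held 183, 186, 169.7 and 170.4 TPM of it, and KO libraries held 203, 200.6, 209.8 and 209.7. The lowest KO library was above the highest WT library, and WT replicates 3 and 4 were the lowest of all. The means were 177 ± 8.42 and 206 ± 4.65 TPM, a 1.16-fold ratio and a log2 difference of 0.22 (SE 0.043, limma adjusted p = 0.0285). The call ended without WT replicate 4 (adjusted p = 0.0754) and without KO replicates 1, 2, 3 or 4 (0.0733, 0.0689, 0.0847 and 0.0929). It also ended without both WT replicates 3 and 4 (log2 difference 0.16, adjusted p = 0.0681), under quantile normalization (0.0509) and with replicate number entered as a block (0.0979).

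Some reads of Scp2 could come from its pseudogene. Scp2-ps2, on chromosome 9, is 99.6% identical to an Scp2 transcript over 1371 bases and was at 8.85 to 18.2 TPM in WT and 13.4 to 19.1 in KO. With its TPM added to that of Scp2, the sum was 191 ± 4.07 in WT and 221 ± 6.50 in KO (log2 difference 0.21, limma adjusted p = 0.0182), and the groups again did not overlap. GENCODE M21 lists 9 Scp2 transcripts, 4 of them protein-coding, and the gene-level TPM does not show which of them differ.

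The cultures also differed in markers of other cells. Of 9 stromal markers tested, 6 rose in KO, with a summed TPM of 4683 to 5185 in WT and 5909 to 6219 in KO for the 10 listed. Thy1 (3.11 and 7.57 TPM, WT and KO means), Postn (213 and 293) and Pdgfrb (27.4 and 37.3) were among them. Dcn (5.92 and 3.96 TPM, log2 difference -0.43, adjusted p = 0.277) was the 1 tested stromal marker below 0, and Lum (0.348 and 0.22) was under the filter. At an unadjusted p under 0.05 there were 7 of 9 stromal, 8 of 10 macrophage and 3 of 5 endothelial markers, against 22.3% of all genes. Of 10 macrophage markers 2 rose (Cd68 and Itgam) and 1 fell (Lyz2, from 3993 to 1927 TPM). Endothelial markers held 2 rises in 5 tested, dendritic cell markers 1 in 2 and osteoclast markers 1 in 4, with 0 falls. Of all genes tested, 4.4% rose and 1.21% fell. Dendritic cell markers held 1 gene and osteoclast markers 2 at an unadjusted p under 0.05. The 2 osteoclast genes went in opposite directions: Acp5 rose, and Atp6v0d2 was lower in KO (241 and 204 TPM, WT and KO means). Of those tested, 4 endothelial, 1 dendritic cell and 1 osteoclast marker lay above 0, and 1, 1 and 3 lay below. Neutrophil (6 tested) and erythroid or megakaryocyte markers (5 tested) held 0 calls by limma, with 1 and 2 at an unadjusted p under 0.05, and lymphocyte markers summed to at most 0.9 TPM. Adipocyte markers summed to 16.5 to 39.1 TPM in WT and 14.4 to 20.6 in KO, and 0 of 4 tested passed by limma (0 at an unadjusted p under 0.05). Hepatocyte markers summed to at most 0.1 TPM in any library, with Cyp3a11 and Fgb at 0 in all 8. The part of these differences in the Scp2 rise was not tested. In such bulk RNA, fewer cells of a type and less RNA per cell cannot be told apart.

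**Figure D3:**
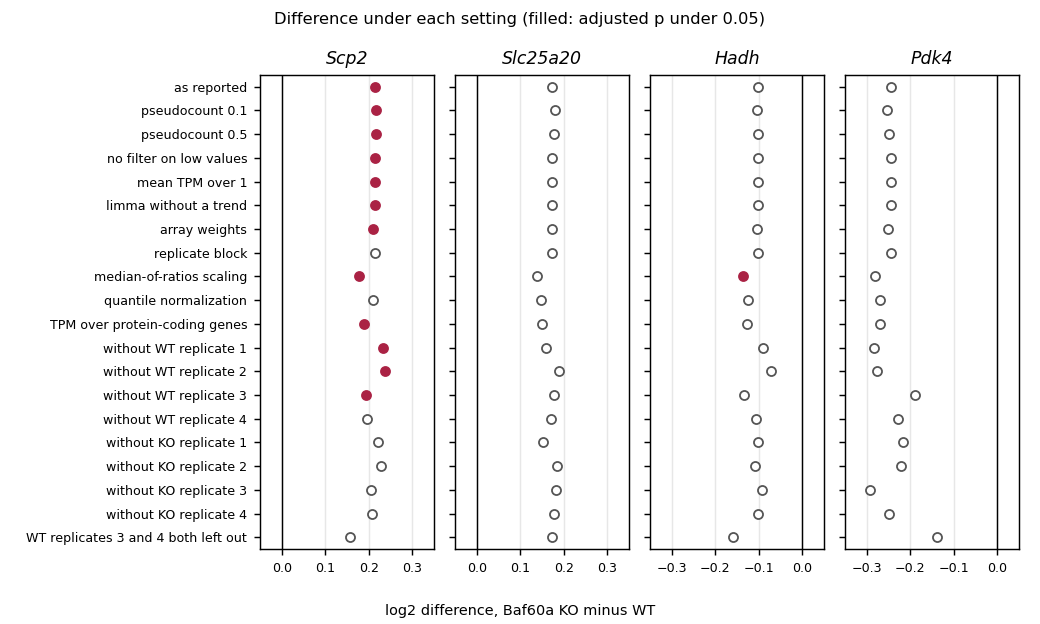
Log2 difference, Baf60a KO minus WT, of Scp2, Slc25a20, Hadh and Pdk4 under the reported setting and 19 alternatives, filled where adjusted p is under 0.05. Scp2 stays between 0.16 and 0.24 and is past the threshold in 11 of the 19 alternatives, Hadh in 1, and Slc25a20 and Pdk4 in 0.

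Promoter sequence was read from the RefSeq table of build GRCm38.p6, which holds a window for 30 of the 35 genes. The stretch from 250 to 51 bases before the RefSeq start of 3 members, which overlaps no annotated exon, is shown 5′ to 3′ on the strand of the gene: Scp2 as the member past the threshold, Slc25a20 as the member with the next smallest adjusted p, and Pdk4 as the member with the largest difference below 0. Capitals mark the nuclear receptor half-site AGGTCA, the GC box GGGCGG and the CCAAT box CCAAT, on either strand.
Scp2 (chr4:108118598-108118797, minus strand): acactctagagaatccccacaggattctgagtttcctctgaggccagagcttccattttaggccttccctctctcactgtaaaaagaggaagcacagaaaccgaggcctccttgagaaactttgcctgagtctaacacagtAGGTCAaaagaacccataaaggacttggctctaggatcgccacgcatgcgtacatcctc
Slc25a20 (chr9:108661886-108662085, plus strand): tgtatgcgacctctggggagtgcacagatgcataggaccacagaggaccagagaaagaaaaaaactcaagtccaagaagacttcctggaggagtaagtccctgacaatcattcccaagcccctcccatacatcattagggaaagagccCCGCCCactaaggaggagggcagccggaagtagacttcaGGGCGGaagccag
Pdk4 (chr6:5496329-5496528, minus strand): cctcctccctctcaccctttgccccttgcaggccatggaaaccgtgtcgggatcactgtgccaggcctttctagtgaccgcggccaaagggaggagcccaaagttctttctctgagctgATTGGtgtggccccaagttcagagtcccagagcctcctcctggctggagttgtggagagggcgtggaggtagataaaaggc
The Scp2 stretch lies before the start of the long transcript but inside the annotated gene, within an intron of 2 other Scp2 transcripts that start upstream, at 108144998 and 108144994. It holds 1 half-site, that of Slc25a20 holds 2 GC boxes, and that of Pdk4 holds 1 CCAAT box.

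Over windows of 300 bases (250 before to 50 after a start), the GC box was found in 23 of the members' 32 windows (71.9%) and in 35.7% of all 32851 windows. The CCAAT box was in 14 (43.8%) against 37.4%, and the half-site in 5 (15.6%) against 16.3%. Those 5 windows belong to Cpt1a, Acadvl, Acadm, Echs1 and Scp2. The DR1 element, which is 2 half-sites in the same direction with 1 base between them and a binding sequence of PPAR with RXR, was in 0 of 32 windows and in 0.0396% of all. The ERR element TCAAGGTCA, which also contains the half-site, was in 0 of 32 and in 0.423% of all. The cyclic AMP response element TGACGTCA was in 0 of 32 against 1.79%. Matches are letters in a window, counted on both strands, and show neither binding nor its absence. The set of all windows was not limited to genes that passed the filter on low values, as the members did. The shares are therefore not matched for expression.

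Among the other peroxisomal genes, 0 of 5 passed the test. Ehhadh, the peroxisomal hydratase and dehydrogenase, was at 0.88, 1.01, 0.86 and 0.88 TPM in WT and 1.26, 0.99, 1.23 and 1.04 in KO. The groups overlapped, with WT replicate 2 above KO replicate 2, and the log2 difference of 0.16 did not pass (adjusted p = 0.353). Acox3, an acyl-CoA oxidase, had the widest relative spread among WT libraries of any member (coefficient of variation 13.02%), from 42.1 TPM in replicate 3 to 58.2 in replicate 1, and its KO mean was 49.9 ± 2.15. Acaa1a, the peroxisomal thiolase, was at 82.3 ± 7.12 and 80.8 ± 2.65 TPM. Its neighbour Acaa1b, 96.6% identical over 1428 bases, was at 1.22 and 1.09, and its exons overlap those of Myd88 (21.4 and 21.6) on the opposite strand. Hsd17b4, the D-bifunctional protein, was at 35.6 ± 1.27 and 36.9 ± 1.24 TPM, and Abcd3, which carries acyl-CoA into peroxisomes, at 25.4 ± 1.52 and 25.8 ± 1.12. Summed over the 6 peroxisomal genes, WT libraries held 342 to 393 TPM, with replicate 3 lowest, and KO libraries 392 to 407.

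Activation to acyl-CoA is carried out by long-chain acyl-CoA synthetases. Acsl5 was at 25.9, 26.8, 24.5 and 23.8 TPM in WT and 27.4, 30.03, 27.95 and 27.5 in KO. All 4 KO libraries were above all WT libraries, and the log2 difference of 0.16 did not pass (limma adjusted p = 0.128). Acsl4, the isoform that prefers arachidonic acid, was at 19.8, 20.6, 19.27 and 20.7 TPM in WT and 19.26, 18.9, 17.9 and 18.5 in KO. Its KO libraries were all below its WT libraries, though WT replicate 3 and KO replicate 1 nearly met, and the log2 difference of -0.10 did not pass (adjusted p = 0.230). Acsl1 was at 11.9 ± 0.653 and 12.9 ± 0.50 TPM and Acsl3 at 6.65 ± 0.577 and 6.26 ± 0.593, and neither passed. Acsl3 shares 244 exon bases on the same strand with Utp14b (0.927 and 1.01 TPM). As a share of the summed TPM of the 4 synthetases, Acsl5 made up 39.5% ± 1.37 in WT and 42.7% ± 1.49 in KO, and Acsl4 31.5% ± 1.06 and 28.2% ± 0.881. A part of Acsl5 overlaps exons of Zdhhc6 (34.9 and 33.3 TPM) on the opposite strand.

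The carnitine shuttle brings acyl groups into the matrix. Slc25a20, the carnitine-acylcarnitine carrier (chromosome 9, 108662088 to 108684641), was at 22.6, 24.2, 23.6 and 23.2 TPM in WT and 27.8, 25.9, 26.0 and 26.3 in KO. The groups did not overlap, and the log2 difference of 0.17 (95% interval 0.07 to 0.27) did not pass (limma adjusted p = 0.0571). Its adjusted p ran from 0.0555 to 0.147 over the 19 alternatives. Cpt2, which returns the acyl group to CoA on the inner side, was at 13.1, 13.9, 13.5 and 14.6 TPM in WT and 14.2, 15.5, 14.96 and 15.5 in KO. Its groups overlapped at WT replicate 4 and KO replicate 1 (log2 difference 0.12, adjusted p = 0.239).

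Cpt1a, the outer membrane transferase that limits entry, was at 33.0, 34.1, 27.9 and 28.9 TPM in WT and 31.07, 31.02, 28.1 and 30.5 in KO. WT replicates 1 and 2 were the highest of the 8 and the KO libraries lay between the WT extremes. Its log2 difference of -0.03 had an interval of -0.20 to 0.13 (adjusted p = 0.848). Cpt1a made up 69.3% ± 2.08 of the TPM of the 3 Cpt1 genes in WT and 68.7% ± 3.77 in KO. Crat, carnitine acetyltransferase, was at 20.1 ± 1.15 and 20.8 ± 1.16 TPM (adjusted p = 0.714).

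The acyl-CoA dehydrogenases take the first pair of electrons from chains of decreasing length. Acadm, for medium chains, was at 43.1, 48.3, 47.2 and 47.9 TPM in WT and 54.2, 49.3, 58.9 and 50.6 in KO. Its groups did not overlap, with the KO libraries more spread than the WT ones, and the log2 difference of 0.19 did not pass (adjusted p = 0.134). Acadl, for long chains, was the most abundant of these genes, at 116, 112, 106 and 105.2 TPM in WT and 103, 103, 107 and 100.5 in KO. KO replicate 3 was above WT replicates 3 and 4, and the log2 difference was -0.09 (adjusted p = 0.285). Acadvl, for very long chains, was at 65.3 ± 2.51 and 66.6 ± 1.84 TPM, with exons that overlap those of Dvl2 (14.5 and 13.8) on the opposite strand, Acads, for short chains, at 38.2 ± 0.870 and 38.6 ± 0.840, and Acad9, also an assembly factor of complex I, at 14.1 ± 1.01 and 15.2 ± 0.966. Acad9 shares 559 exon bases on the same strand with Gm43079 (3.28 and 4.35 TPM, 99.8% identical over 532 bases), so the division of reads between them is uncertain. The intervals of Acadvl (-0.07 to 0.12) and Acads (-0.07 to 0.10) were among the 5 that stayed within a 1.1-fold change.

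Electrons leave these enzymes through the electron transfer flavoprotein, a dimer of the Etfa and Etfb products, and its dehydrogenase Etfdh. Etfb was at 243, 239, 211 and 209.6 TPM in WT and 207, 215, 220.1 and 211 in KO. WT replicates 1 and 2 stood above the other 6 libraries, and the groups overlapped (log2 difference -0.08, adjusted p = 0.490). Without WT replicates 3 and 4 the log2 difference was -0.17 (adjusted p = 0.0603). Etfdh was at 28.7, 27.3, 29.4 and 30.95 TPM in WT and 29.2, 29.8, 31.1 and 32.05 in KO, with overlapping groups (log2 difference 0.07, adjusted p = 0.497). Etfa was at 101 ± 3.38 and 98.1 ± 3.38 TPM. The ratio of Etfb to Etfa TPM was 2.23 ± 0.183 in WT and 2.18 ± 0.0580 in KO.

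The remaining steps of the mitochondrial spiral are shared by the trifunctional protein (Hadha and Hadhb) and soluble enzymes. Acaa2, the matrix thiolase, was at 32.8, 32.5, 34.5 and 32.5 TPM in WT and 36.5, 36.8, 37.0 and 34.97 in KO. The groups did not overlap, with WT replicate 3 close to KO replicate 4, and the log2 difference of 0.13 did not pass (adjusted p = 0.0997). Hadh, the dehydrogenase for shorter chains, was at 42.8, 44.4, 39.0 and 41.3 TPM in WT and 38.9, 39.6, 38.2 and 38.9 in KO. Here KO replicate 2 was above WT replicate 3 (log2 difference -0.10, adjusted p = 0.251), and with median-of-ratios scaling of TPM Hadh passed as lower in KO (-0.14, adjusted p = 0.0449). Hsd17b10, the dehydrogenase for short branched chains, was the most abundant of this role, at 203, 190.2, 193 and 188 TPM in WT and 192, 197, 197.5 and 195 in KO. It had the narrowest interval of all members, -0.07 to 0.09.

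Hadha and Hadhb form one complex and lie head to head on chromosome 5. Mean Hadha TPM was 79.3 ± 5.96 (WT) and 79.0 ± 1.51 (KO), and Hadhb was at 59.2 ± 5.91 and 64.4 ± 0.631 (adjusted p = 0.985 and 0.323). Both were lowest in WT replicate 3, at 70.8 and 51.8 TPM. The ratio of Hadha to Hadhb TPM was 1.35 ± 0.101 in WT, where it ran from 1.24 to 1.48, and 1.23 ± 0.0167 in KO. Echs1, the enoyl-CoA hydratase, was at 89.0 ± 6.42 and 85.9 ± 3.85 TPM. Processed pseudogenes of Hadhb (Gm9108 and Gm13910, 97.6% and 99.8% identical over 1426 and 1428 bases) were at 2.96 and 0.772 TPM in WT.

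Unsaturated chains need isomerases and reductases beside the spiral. On the log2(TPM + 1) scale, Decr2, the peroxisomal dienoyl-CoA reductase, had the largest difference above 0 of any member. The ratio of KO to WT means was larger for Ehhadh (1.245, against 1.183 for Decr2). Decr2 was at 14.7, 14.3, 13.4 and 14.6 TPM in WT and 15.6, 15.6, 18.7 and 17.5 in KO. Its groups did not overlap, with KO replicates 3 and 4 well above the other KO libraries, and the log2 difference of 0.22 did not pass (adjusted p = 0.101). A stretch of 107 bases of a Decr2 transcript is 96.3% identical to one of Ccdc6 (22.5 and 24.5 TPM). Decr1, the mitochondrial counterpart, was at 15.5, 14.5, 14.5 and 15.7 TPM in WT and 17.5, 16.7, 16.1 and 16.6 in KO. Its groups did not overlap either (log2 difference 0.14, adjusted p = 0.133).

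Ech1, a dienoyl-CoA isomerase, was at 135, 123, 123 and 115 TPM in WT and 127, 130.2, 130.4 and 131 in KO. WT replicate 1 was above every KO library (log2 difference 0.07, adjusted p = 0.446). The enoyl-CoA isomerases Eci1, at 28.0 ± 0.537 and 26.8 ± 1.38 TPM, and Eci2, at 97.2 ± 4.86 and 93.4 ± 6.61, did not pass (adjusted p = 0.498 and 0.642).

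Of the regulators, Pdk4 and Mlycd bear on how much fat is burned. Pdk4 (chromosome 6, 5483351 to 5496309, minus strand) encodes a kinase that blocks pyruvate dehydrogenase and so favours fat over glucose. Its TPM was 26.3, 26.7, 32.3 and 29.6 in WT and 22.6, 22.8, 26.6 and 24.2 in KO. KO replicate 3 lay between WT replicates 1 and 2, and the other KO libraries lay below all WT libraries. The log2 difference of -0.24 (95% interval -0.42 to -0.07) was the largest in size of any member on the log2(TPM + 1) scale. It did not pass (limma adjusted p = 0.109). With a pseudocount of 0.1, that of Ehhadh was larger in size (0.28, against -0.25 for Pdk4). Without WT replicates 3 and 4, which held the highest values of Pdk4, its log2 difference was -0.14 (limma adjusted p = 0.290). A stretch of 124 bases of a Pdk4 transcript is 95.97% identical, on the other strand, to one of Lpl, whose WT mean was 1331 TPM. Pdk4 made up 30.3% ± 1.96 of the TPM of the 4 Pdk genes in WT and 25.5% ± 0.887 in KO. Mlycd, which removes the malonyl-CoA that inhibits Cpt1a, was at 8.84, 8.69, 7.86 and 8.45 TPM in WT and 8.96, 8.44, 9.13 and 9.57 in KO, with overlapping groups (adjusted p = 0.469).

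Smarcd1 itself was lower in every KO library (9.91 to 10.9 TPM) than in any WT library (14.01 to 16.3), with a log2 difference of -0.47 (limma adjusted p = 0.00756). The KO mean was still 10.5 ± 0.447 TPM, against 14.8 ± 0.998 in WT, so the deletion is not seen as a loss of the transcript at gene level, and these values do not show how complete it was. Of the 782 called genes 78.4% rose, a share that was 56.2% with median-of-ratios scaling, 63.4% with quantile normalization and 64.9% with TPM rescaled over protein-coding genes. Leaving out both WT replicates 3 and 4 gave 54%. With the 3 scalings 16 of 34, 19 of 35 and 18 of 35 members lay above 0. WT replicates 3 and 4 stood apart in the share of TPM held by processed pseudogenes (12.4% and 12.7%, against 7.05% to 8.72% in the other 6 libraries). Of the 35 members, 14 had their lowest value of the 8 libraries in WT replicate 3, and the other libraries held the lowest value of 2 to 4 members each. The part of this share in the members' differences was not tested. Without both of these libraries 0 members were called, and 18 lay above 0 and 17 below. That setting has fewer libraries, and leaving out WT replicate 4 alone or any 1 KO library also gave 0 called members.

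**Figure D4:**
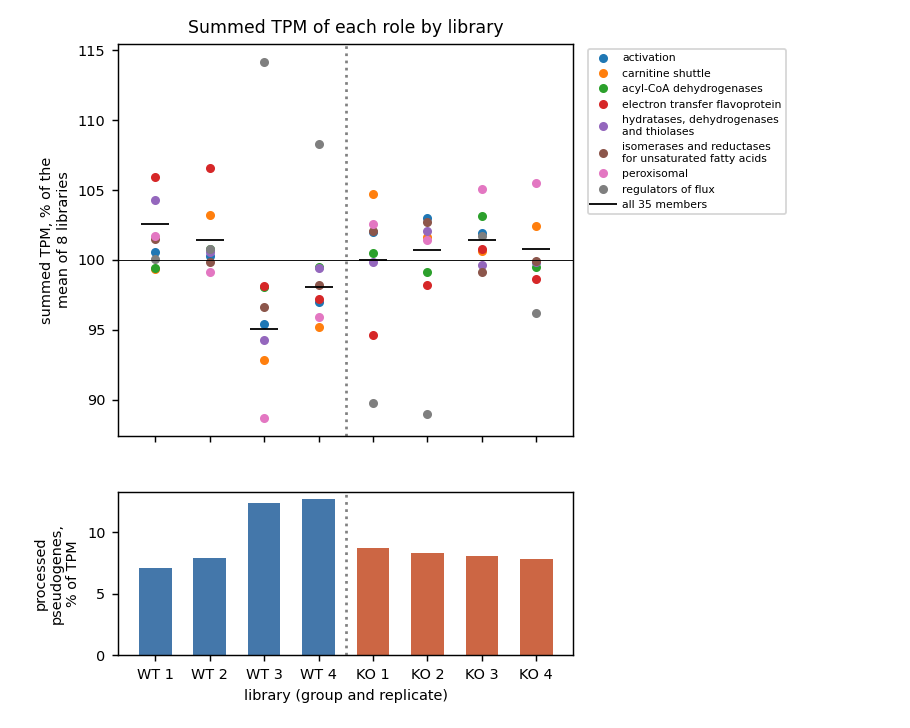
Upper panel, summed TPM of each role in each library as a percentage of the mean of the 8 libraries, with black bars for all 35 genes. Lower panel, the share of TPM in processed pseudogenes. WT replicate 3 has the lowest sum over the 35 genes (1882 TPM), and it and WT replicate 4 have the highest pseudogene shares (12.4% and 12.7%).

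Of 9 related lists, 6 held 0 calls. Fatty acid supply genes (17.6% called), thioesterases and nudix hydrolases (16.7%) and PPAR targets (15.4%) held 2 or 3 calls each, against 5.61% of all genes. Of 22 other beta-oxidation enzymes tested, 0 passed by limma, with 5 at an unadjusted p under 0.05 (median log2 difference 0.05). Of 12 acyl-CoA thioesterases and nudix hydrolases, which release CoA from acyl-CoA or split CoA itself, 2 rose and 0 fell (median 0.02). Nudt7, a peroxisomal CoA hydrolase, was at 7.02 ± 0.146 TPM in WT and rose to 8.95 ± 0.376 in KO (log2 difference 0.31, adjusted p = 0.0194). Acot13, a mitochondrial thioesterase at 56.3 ± 2.57 TPM in WT, rose to 64.9 ± 1.44 in KO (0.20, adjusted p = 0.0367). The call of Nudt7 held in 13 and that of Acot13 in 6 of the 19 alternatives. Acot7 was the most abundant of this list among those that did not pass, at 62.4 ± 4.38 and 68.7 ± 1.89 TPM.

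Of 32 listed regulators of the pathway, 26 were tested and held 0 calls by limma, with 1 at an unadjusted p under 0.05 and a median of 0.05. Ppargc1a, the gene of PGC-1alpha, was under the filter at 0.015 and 0.0625 TPM (WT and KO means), as was Ppara, the gene of PPARalpha, at 0.0825 and 0.255, and neither was tested. Of their relatives, Ppargc1b was at 1.41 and 1.195 TPM, Ppard at 35.2 and 38.0 and Pparg at 34.8 and 34.1. These relatives were tested and did not pass (limma adjusted p = 0.445, 0.435 and 0.769). The genes named so far in this paragraph were chosen after their values were seen. The corepressor Ncor1, the most abundant of the regulators tested, was at 79.6 ± 10.5 and 77.8 ± 3.97 TPM. Of 13 PPAR targets outside beta-oxidation, 2 fell and 0 rose (median -0.04). These were Plin2, a lipid droplet coat protein (log2 difference -0.59, adjusted p = 0.0112), and the lipase inhibitor Angptl4 (-0.27, adjusted p = 0.0367). The call of Plin2 held in all 19 alternatives and that of Angptl4 in 8. The fatty acid carrier Fabp5 was at 3875 ± 389 and 3840 ± 173 TPM.

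Fatty acid supply genes, 17 tested, held 1 rise and 2 falls (median -0.04). Slc27a4, a fatty acid transport protein at 9.53 ± 0.681 TPM in WT, rose to 11.8 ± 0.377 in KO (0.28, adjusted p = 0.0363), and 9 of the 19 alternatives kept this call. Mgll, which frees fatty acids from monoglycerides, fell (-0.63, adjusted p = 0.00933, lost only with the replicate block at 0.0598), as did Plin2, which this list shares with the PPAR targets. Peroxisome biogenesis (19 tested, most abundant Fis1 at 156 ± 5.30 and 169 ± 5.90 TPM), branched-chain, lysine and propionate oxidation (18, Ivd at 60.8 ± 7.30 and 60.4 ± 5.48), carnitine and FAD supply (9, Aldh9a1 at 52.7 ± 2.18 and 51.0 ± 2.12) and ketone body use (7, Oxct1 at 80.9 ± 6.66 and 87.9 ± 6.41) held 0 calls by limma. At an unadjusted p under 0.05 they held 1, 1, 0 and 0 genes. Their medians were 0.01, 0.00, -0.05 and 0.07.

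**Figure D5:**
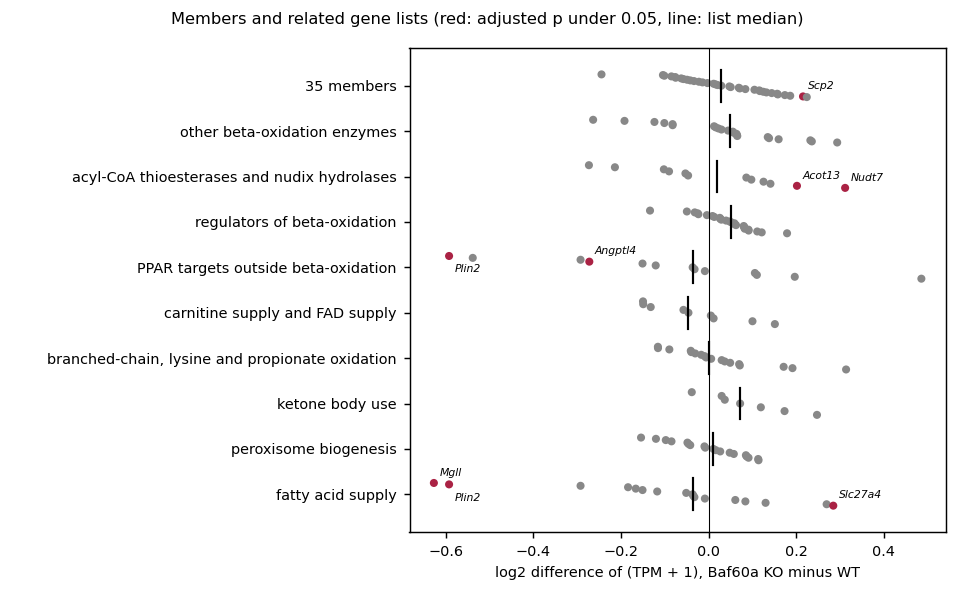
Log2 difference of TPM + 1, Baf60a KO minus WT, for the 35 members and the tested genes of 9 related lists, 1 point a gene, with black lines at list medians and called genes in red. The members lie between -0.24 and 0.22, and Plin2 (-0.59) and Mgll (-0.63) lie farthest below 0.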

How the data were processed

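RNA sequencing of 4 WT and 4 Baf60a KO libraries gave 1 deposited table of values, read here as TPM. It was made by the authors with bcl2fastq and Salmon 1.2.0 on build mm10, per the submitters' processing notes. Paired reads came from a NovaSeq run on total RNA, per the labels' protocols. Which transcript annotation was used, and how transcripts were summed, is not given in the sources used here. That the values are TPM was inferred from each library's equal total and the use of Salmon, as the labels do not name the unit. An equal total does not by itself show scaling for transcript length, on which comparisons of level between genes rest. Since TPM does not keep depth, intervals for counting error were not computed.

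Groups and replicate numbers came from the sample titles. Symbols came from GENCODE M21, on the same assembly as mm10, and matched 55240 of 55421 identifiers. The 13933 genes that exceeded a TPM of 1 in 4 or more libraries were fitted with limma 3.58.1 in R 4.3.3 on log2(TPM + 1), with group as the only term, a mean-variance trend and Benjamini-Hochberg adjustment across all genes tested. The pseudocount of 1 understates changes of low genes. Of these steps, only the limma fit was tested on simulated data, with noise drawn independently for each gene and library. Sequence similarity was measured with BLAST 2.17.0 on GENCODE M21 transcripts, at 95% identity over 100 bases or more.

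The members, related lists and marker lists were chosen with earlier results of these data known. Per-library values are given for called members, the 2 members of each role with the smallest p, the most abundant of each role and all whose groups do not overlap. From each related list up to 3 called genes and the most abundant other are named, except 1 that is not reported here, and the other marker genes were chosen after their values were seen. Alternatives covered the pseudocount, the filter, the variance model, library weights, the replicate number as a block, scaling, and left-out libraries, and adding Scp2-ps2 to Scp2 was chosen after seeing the data.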

Additional observations from a re-analysis of the deposited data

Results flagged for a closer look

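In 5 of 100 groups of 4 libraries checked (50 named genes in each group), 1 library lay far from the other 3 by Dixon's gap, about what chance gives, which is 1 in 20. In WT replicate 2, Acsl3 was at 5.79 TPM, with the others at 6.85 to 7.00, and Ehhadh was at 1.01 TPM, with the others at 0.86 to 0.88. In WT replicate 3, Acaa2 was at 34.45 TPM, with the others at 32.46 to 32.75, and Ivd was at 49.93 TPM, with the others at 63.81 to 65.5. In KO replicate 3, Oxct1 was at 97.38 TPM, with the others at 83.76 to 86.01.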

How the results depend on the processing

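The number of members that rose was 1 as reported and 0 with the replicate block, with quantile normalization and without WT replicates 3 and 4, and it ran from 0 to 1 with 1 library left out. The number that fell was 0 as reported and 1 (Hadh) with median-of-ratios scaling. The cause was not tested. Scp2 lay above 0 in all 19 alternatives, between 0.16 and 0.24. Counts of all genes that rose and all genes that fell were 613 and 169 as reported, 292 and 72 with no filter on low values, which tests more genes, 146 and 63 with the replicate block, and 201 and 171 without WT replicates 3 and 4. Scaling by median-of-ratios gave 403 falls, quantile normalization 254 and TPM rescaled over protein-coding genes 321. With 1 library left out, which leaves fewer samples, rises ran from 120 to 532 and falls from 36 to 235. A pairing of the libraries by replicate number was not seen. Deviations of same-numbered libraries correlated at -0.113, 0.012, 0.008 and -0.016, and 0 of 4 numbers were each other's best match. Such correlations cannot show that the libraries were unpaired, since other differences between libraries can hide a pairing. No named gene that was called changed sign, and 9 of the 35 members, none called, changed sign in at least 1 alternative. Ehhadh was not tested in 5 of the 19 alternatives, where it fell under the filter. Depth is unknown, so its limit on low members such as Ehhadh cannot be given.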
